A study of Mus musculus with 18 samples.

Results

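The 9 genes described here make, remove or protect DNA methylation in mouse cells. They were taken by symbol from the deposited table of raw RNA-seq counts, which held 55450 gene IDs. They are the DNA methyltransferase genes Dnmt1, Dnmt3a and Dnmt3b, their partner Uhrf1, the methylcytosine dioxygenase genes Tet1, Tet2 and Tet3, and the imprint keepers Zfp57 and Trim28. All 9 of 9 passed the filter on low counts and were among the 17912 genes tested, and the lowest count of any of them in any library was 88.

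RNA was measured in 18 libraries of C2C12, an established line of mouse myoblasts whose cells stop dividing and fuse once serum is withdrawn. There were 3 lines, each sampled as myoblasts in growth medium with fetal bovine serum and as myotubes on day 3 in medium with horse serum, with 3 replicates (A, B and C) in each of the 6 groups. The control was a sorted, EGFP-positive population that had received the pX458 vector alone, a plasmid carrying Cas9 and EGFP. The Dlk1-Dio3 overexpressor (clone 2-4) and the Dlk1-Dio3 knockout (clone 2-7) were each 1 clone grown from a single EGFP-positive cell after transfection with a pair of Cas9 and guide RNA constructs aimed at the Meg3 promoter region. Genotype and clone therefore cannot be told apart, the control was not itself a clone, and the p-values measure only the spread between libraries of 1 line, which may be technical. The series asks how the dosage of the imprinted Dlk1-Dio3 noncoding RNA cluster bears on muscle cell state, and the 9 genes were compared between lines at each stage, between stages in each line, and between lines in their response to differentiation.

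Methylation of cytosine in CpG is copied at each round of DNA replication: UHRF1 recognises the hemimethylated site and recruits DNMT1, which methylates the new strand. DNMT3A and DNMT3B place methylation de novo, and TET enzymes oxidise methylcytosine, which leads to its loss. At imprinted loci such as Dlk1-Dio3, where Meg3 is transcribed from the maternal chromosome, the zinc finger protein ZFP57 binds the methylated copy and recruits TRIM28 (KAP1), a scaffold for heterochromatin factors, so that the imprint is kept through cell division.

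Library totals ran from 41544358 to 79140702 counts. Meg3 had 0 counts in all 12 control and knockout libraries and from 5222 to 7763 in the 6 overexpressor libraries, so it checks the overexpressor label but does not separate knockout from control; a gene on the opposite strand, Gm26906, overlaps it. The direction of the knockout comparisons rests on the label alone. All 6 myotube markers (Myog, Myh3, Ckm, Mymk, Actn2 and Tnnt3) had counts in every group. CPM were counts scaled by the product of the library's filtered total and its TMM scaling factor (0.895 to 1.08). The 6 markers summed to 184 to 267 CPM in control myoblasts, 328 to 516 in overexpressor and 5329 to 6717 in knockout myoblasts. In myotubes they summed to 8088 to 8907 CPM in control, 13108 to 14130 in the overexpressor and 15856 to 18221 in the knockout. The 5 myoblast markers (Myod1, Myf5, Des, Pax7 and Vim) summed to 6568 to 6990 CPM in control, 9382 to 10318 in overexpressor and 7868 to 8215 in knockout myoblasts. Their myotube sums were 5230 to 5437 CPM in control, 7169 to 8552 in the overexpressor and 10482 to 13107 in the knockout. Des was the highest of them in the clones' myotubes and Vim in the other groups. The lines thus differed in both sets of markers at each stage, and their part in the results that follow was not tested. The pluripotency genes Pou5f1 and Zfp42 were at 0, and the summed markers of pluripotent cells, leukocytes, endothelium, adipocytes and osteoblasts or chondrocytes stayed at or under 2.37 CPM. Of the 4 epithelial markers Epcam was at 0, and Krt14 was the highest of them except in knockout myotubes. The epithelial sum ran from 2.33 CPM in knockout myotubes to 122 CPM in overexpressor myoblasts. Overexpressor myotube replicate C stood apart from replicates A and B (chi-square per degree of freedom over genes 115 and 109.9, against 22.2 between A and B). Overexpressor myoblast replicate B stood apart to a lesser extent (35.0 and 31.0, against 8.02 between A and C), and knockout myotube replicates A and C differed by 52.8, with B between them (20.3 and 23.1). Calls of the 9 genes that changed without overexpressor myotube replicate C or overexpressor myoblast replicate B are given with the results they touch.

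Letters that E2F factors are known to bind were looked for in RefSeq promoter windows (GRCm38.p6, from 250 bases before to 50 after a transcript start) because E2F drives genes of the S phase. They are shown for the members in which they were found. The letters searched were TTTGGCGC, TTTCCCGC, TTTCGCGC and TTTGCCGC on both strands. They were present in windows of 2 of the 9 genes, Dnmt1 and Uhrf1, against 2.60% of all 27025 genes in the table (2 of the 16 windows of the members, against 2.26% of all 32851 windows). Both Dnmt1 matches lie on chromosome 9 (minus strand, as printed), each in an annotated UTR exon of some Dnmt1 transcripts, at chr9:20952827-20952850 and chr9:20952575-20952598. The Uhrf1 stretch is chr17:56304063-56304312 on the plus strand, the 250 bases before 1 of its annotated starts, which no annotated exon overlaps. Capitals mark the matched letters. The first Dnmt1 match is the reverse complement of a searched word, and its first base lies at -219 from the start. The second Dnmt1 match lies at 34 and the Uhrf1 match at -185.
Dnmt1 first match: ttccgcgcGCGCGAAAaagccggg
Dnmt1 second match: gggcagcgTTTGGCGCgggctgtg
Uhrf1 promoter: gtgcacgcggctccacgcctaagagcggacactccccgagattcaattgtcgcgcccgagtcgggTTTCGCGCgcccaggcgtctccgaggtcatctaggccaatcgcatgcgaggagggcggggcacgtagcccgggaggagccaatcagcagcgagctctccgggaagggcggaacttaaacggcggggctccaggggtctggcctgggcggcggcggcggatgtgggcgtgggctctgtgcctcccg
A match describes the letters only, and whether it bears on expression was not tested. Each searched word holds a CpG, and no rate was computed over windows of like CpG content. The windows that held the matches had 33 CpG dinucleotides in Dnmt1 and 33 in Uhrf1, against a median of 7 over all windows (quartiles 3 and 20). The window of Tet2 held 57, and the 3 windows of Zfp57 held from 4 to 9. CCAAT was found in windows of 4 of the 9 genes (41.1% of all genes) and the myogenic E-box CAGCTG in those of 2, Tet3 and Zfp57 (18.3% of all genes).

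Per kilobase of exon, Trim28 was the most abundant of the 9 genes, with a median of 91.4 RPKM over the 18 libraries. Uhrf1 followed at 17.9, Dnmt1 at 16.1, Zfp57 at 4.99 and Tet3 at 4.96 RPKM. The lower medians were 1.53 RPKM for Dnmt3a, 0.835 for Tet2, 0.463 for Dnmt3b and 0.303 for Tet1. Uhrf1 ranged from 1.06 to 50.0 RPKM.

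**Figure D1:**
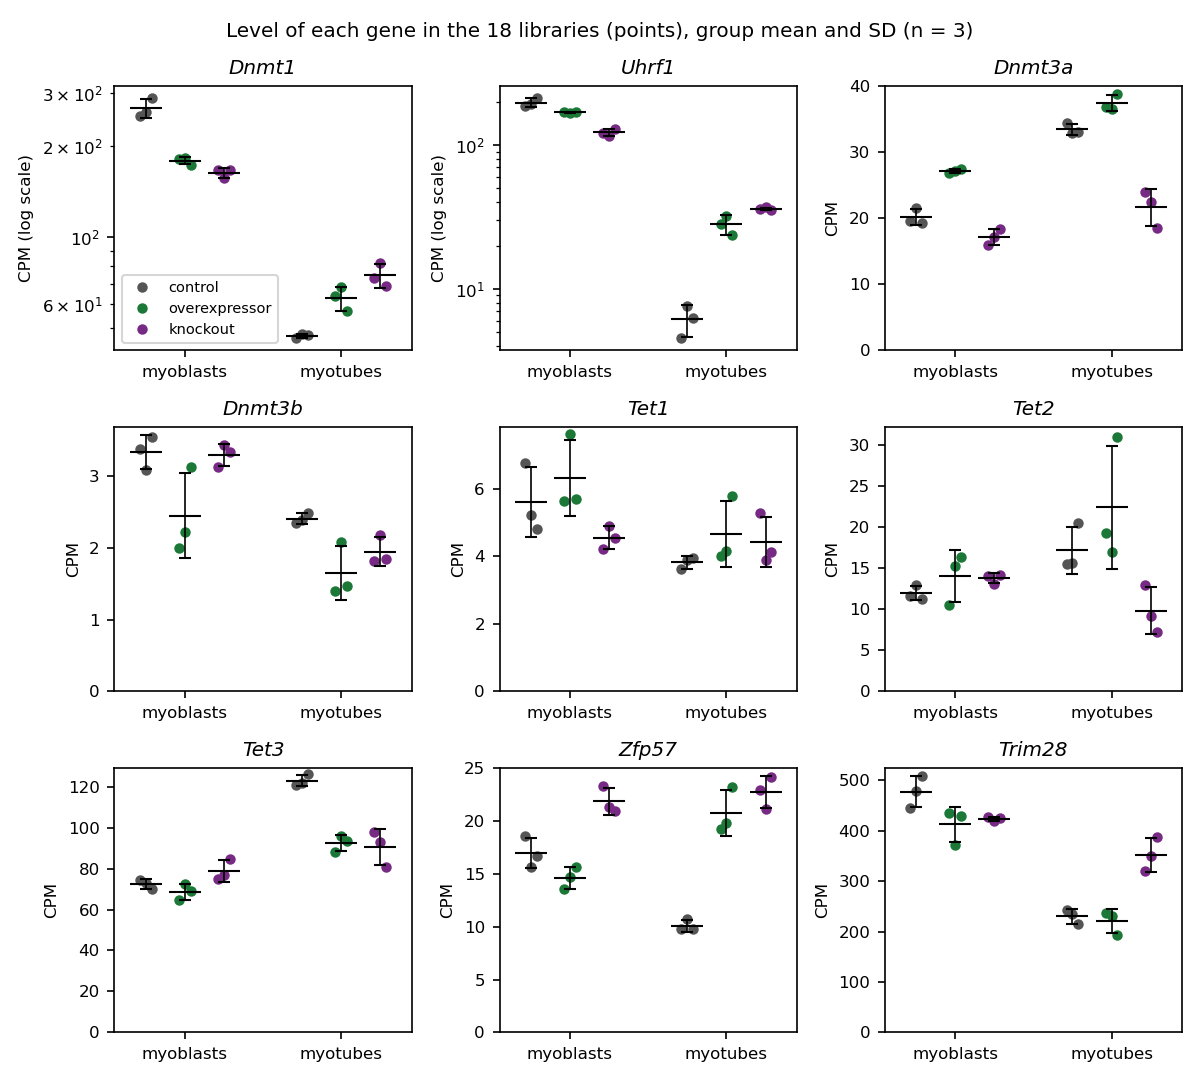
Level of each of the 9 genes in CPM (TMM-scaled counts, vertical axis) in the 18 libraries, by stage and line. The axis is a log scale for Dnmt1 and Uhrf1. Points are libraries and bars are the group mean and SD (n = 3). Dnmt1 and Uhrf1 were lower in the myotubes of all 3 lines and least so in the knockout, Tet3 was highest in control myotubes (121 to 126 CPM), and Zfp57 was lowest there (9.78 to 10.7 CPM).

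Dnmt1 and Uhrf1 are the maintenance genes. Dnmt1 (ENSMUSG00000004099, chr9:20907209-20959888, minus strand, GRCm38) stood at 253, 259.7 and 289 CPM in control myoblasts, 181, 183 and 174 in overexpressor myoblasts and 166, 156 and 167 in knockout myoblasts. In myotubes it stood at 46.1, 47.6 and 47.2 CPM in control, 63.5, 68.0 and 56.6 in the overexpressor and 73.1, 81.8 and 68.8 in the knockout. No 2 of these 6 groups overlapped, with control highest among the myoblasts and lowest among the myotubes. Uhrf1 (ENSMUSG00000001228, chr17:56303321-56323486, plus strand) stood at 187, 194 and 213 CPM in control myoblasts, 171, 169 and 169.8 in the overexpressor and 122, 116 and 129 in the knockout. Its myotube levels were 4.51, 7.58 and 6.28 CPM in control, 28.4, 32.2 and 23.6 in the overexpressor and 35.8, 36.8 and 35.3 in the knockout. Again no groups overlapped, and control myotubes held the least Uhrf1 of all.

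On differentiation of the control line, 2 of the 9 genes rose, 6 fell and 1 was not called. Calls were made by edgeR's quasi-likelihood test at a Benjamini-Hochberg adjusted threshold of 0.05. Over all genes 62.8% were called in this comparison, 33.9% higher and 28.8% lower. Uhrf1 fell 32.5-fold (log2 -5.02, SE 0.15, adjusted p = 1.05e-14) and Dnmt1 5.69-fold (log2 -2.51, SE 0.08, adjusted p = 9.17e-15). In the overexpressor, where 4 members rose and 5 fell (62.8% of all genes called, 29.8% higher and 33.0% lower), the falls were 6.05-fold for Uhrf1 and 2.86-fold for Dnmt1. In the knockout, where 2 rose and 4 fell (65.4% of all genes called, 29.8% higher and 35.6% lower), Uhrf1 fell by 1.77 on the log2 scale (3.41-fold, adjusted p = 2.27e-09) and Dnmt1 by 1.13 (2.18-fold, adjusted p = 5.68e-10). In bulk RNA, fewer cells of a type and less RNA per cell cannot be told apart.

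The fall was set beside 20 genes of DNA replication, which like Dnmt1 and Uhrf1 are transcribed in dividing cells. All 20 fell in each line, with a median log2 change of -2.62 for control, -1.88 for the overexpressor and -1.37 for the knockout (all genes: 0.07, -0.02 and -0.08). The change of Dnmt1 lay among theirs in each line. That of Uhrf1 was below all 20 in the control and the overexpressor, where the lowest of the list were Cdc6 at -4.44 and Mcm5 at -2.43, and 2 of the 20 were below it in the knockout. Among the replication genes named throughout, the control changes were -1.91 for Pcna, the sliding clamp, -2.59 for Mcm2 and -4.34 for Mcm5, subunits of the replicative helicase, and -2.27 for the thymidylate synthase gene Tyms.

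**Figure D2:**
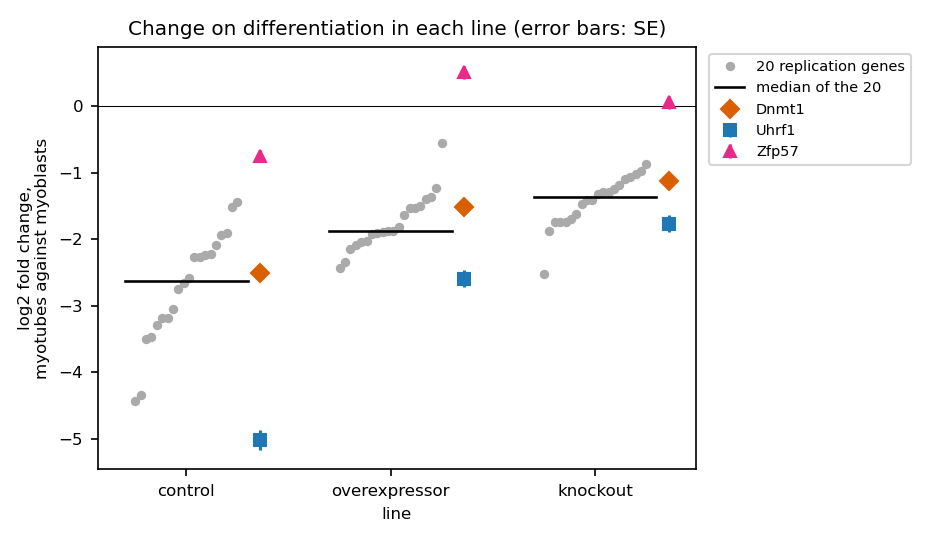
Log2 fold change of myotubes against myoblasts (vertical axis) in each line, with points for 20 replication genes, a bar for their median, and symbols with SE for Dnmt1, Uhrf1 and Zfp57. Uhrf1 fell by 5.02 in control and by 1.77 in the knockout, the median of the replication genes was -2.62 and -1.37 in the same lines, and Zfp57 was at -0.75 for control, 0.51 for the overexpressor and 0.06 for the knockout, a value that library totals turned to -0.11.

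The size of the response differed between the lines when that difference was tested. Compared with control, the response of Uhrf1 was less negative by 2.42 on the log2 scale in the overexpressor (SE 0.18, adjusted p = 1.01e-08) and by 3.25 in the knockout (SE 0.18, adjusted p = 2.66e-10). For Dnmt1 the differences were 0.99 (adjusted p = 5.53e-07) and 1.38 (adjusted p = 7.16e-09). Both values of Uhrf1 were above those of all 20 replication genes, whose medians were 0.87 and 1.21. These pairs of comparisons share the control libraries. Between the clones, the response was more negative in the overexpressor by 0.83 for Uhrf1 (difference -0.83, adjusted p = 0.000991) and by 0.39 for Dnmt1 (difference -0.39, adjusted p = 0.00613). With a GC and length trend removed from each library the Dnmt1 difference was -0.11 (adjusted p = 0.363), no longer called, and that of Uhrf1 -0.48 (adjusted p = 0.0163).

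Compared directly in myotubes, Uhrf1 was 4.61-fold higher in the overexpressor than in control (log2 2.20, SE 0.14, adjusted p = 2.47e-10) and 5.90-fold higher in the knockout (log2 2.56, SE 0.14, adjusted p = 3.31e-11). Dnmt1 was 1.34-fold (adjusted p = 0.000108) and 1.59-fold higher (adjusted p = 3.77e-07). Of the 20 replication genes, 16 were higher and none lower in the overexpressor (median 0.53), where 26.2% of all genes were higher and 30.9% lower. In the knockout 16 were higher and 3 lower (median 0.98), where 31.0% of all genes were higher and 37.0% lower. Values in the overexpressor and then the knockout follow. Mcm5 was at 1.46 and 2.18, Mcm2 at 0.43 and 0.98, Pcna at 0.44 and -0.23, and Tyms at 0.94 in the knockout and not called in the overexpressor (0.07). In overexpressor against knockout myotubes both maintenance genes were lower, Dnmt1 by 0.25 (difference -0.25, adjusted p = 0.00802) and Uhrf1 by 0.36 (difference -0.36, adjusted p = 0.0206). Both calls were lost when replicate C of the overexpressor myotubes was left out (-0.15, adjusted p = 0.102, and -0.22, adjusted p = 0.131), without knockout myotube replicate B (adjusted p = 0.0672 and 0.0593), with library totals (-0.15, adjusted p = 0.108, and -0.26, adjusted p = 0.0998) and with the GC and length trend removed (-0.08, adjusted p = 0.312, and -0.09, adjusted p = 0.499). Without replicate C the overexpressor values against control were 2.42 for Uhrf1 and 0.59 for Dnmt1 (adjusted p = 4.23e-12 and 1.51e-06).

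In myoblasts the maintenance genes were lower than control in the clones, with 1 of the 4 values not called. Dnmt1 fell by 0.58 in the overexpressor (adjusted p = 4.67e-06) and by 0.71 in the knockout (adjusted p = 2.15e-07). Uhrf1 fell by 0.69 in the knockout (SE 0.12, adjusted p = 0.000122), whereas the overexpressor value of -0.22 was not called (adjusted p = 0.169), though it was with the compared groups alone (-0.25, adjusted p = 0.00603). Between the clones' myoblasts the Dnmt1 value of 0.14 was not called (adjusted p = 0.133). Uhrf1 was higher in overexpressor than in knockout myoblasts by 0.47 (SE 0.12, adjusted p = 0.00342), or 0.43 to 0.51 with 1 library left out. In knockout myoblasts 16 of the 20 replication genes were lower and 1 was higher (median -0.40), where 26.6% of all genes were lower and 26.4% higher. In overexpressor myoblasts 9 replication genes were lower and 1 was higher (median -0.26), where 19.7% of all genes were lower and 20.7% higher. Myotube markers summed to 5329 to 6717 CPM in knockout myoblasts and 328 to 516 in overexpressor myoblasts, against 184 to 267 in control. Whether the marker levels bear on any of these values was not tested.

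**Figure D3:**
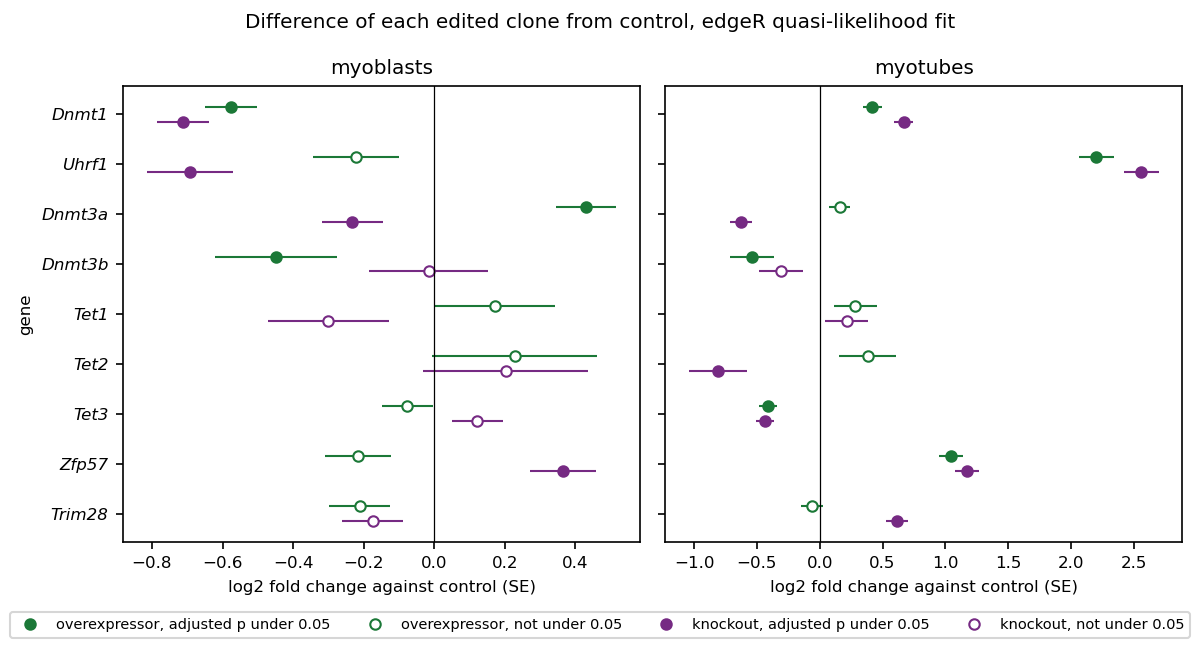
Log2 fold change of each clone against control (horizontal axis, bars: SE) for the 9 genes in myoblasts and in myotubes, with filled points for an adjusted p under 0.05 and open points otherwise. Dnmt1 was below 0 in the myoblasts of both clones (-0.58 and -0.71) and above 0 in their myotubes (0.42 and 0.67), and Uhrf1 and Zfp57 lay farthest above 0 in myotubes.

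Counted over the 9 genes, overexpressor against control myoblasts gave 1 higher and 2 lower calls, where 40.4% of all genes were called (20.7% higher, 19.7% lower). Knockout against control myoblasts gave 1 higher and 3 lower, against 53.0% of all genes called (26.4% higher, 26.6% lower). Overexpressor against knockout myoblasts gave 3 higher and 3 lower, against 52.6% (25.7% higher, 26.9% lower). Pairs of these comparisons share a line, so their counts are not independent. In myotubes the overexpressor had 3 higher and 2 lower than control, against 57.1% of all genes called (26.2% higher, 30.9% lower). The knockout had 4 higher and 3 lower, against 68.0% (31.0% higher, 37.0% lower). Overexpressor against knockout myotubes gave 2 higher and 3 lower, against 59.7% (30.6% higher, 29.1% lower). For the responses, 3 differences were positive and 1 negative for overexpressor against control, where 39.0% of all genes were called (16.6% higher, 22.3% lower). For knockout against control 4 were positive and 3 negative, against 50.1% (20.2% higher, 29.9% lower), and for overexpressor against knockout 2 and 3, against 46.7% (24.3% higher, 22.4% lower). Without overexpressor myoblast replicate B the calls of Dnmt3b (-0.43, then -0.37, adjusted p = 0.133) and Tet1 (0.47, then 0.32, adjusted p = 0.159) between the clones' myoblasts were lost. Without knockout myoblast replicate C the 6 calls between the clones' myoblasts became 3, and without overexpressor replicate C or knockout replicate B the 5 between their myotubes became 3. With 9 genes against such backgrounds, the number called is not in itself a result about them.

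Of the de novo enzymes, Dnmt3a rose on differentiation in every line, and its lines stood apart in the same order at both stages. Dnmt3a (ENSMUSG00000020661, chr12:3806007-3914443, plus strand) stood at 19.6, 21.5 and 19.3 CPM in control myoblasts, 26.9, 27.1 and 27.5 in overexpressor myoblasts and 16.0, 17.2 and 18.3 in knockout myoblasts. In myotubes the values were 34.5, 33.0 and 33.0 CPM in control, 36.8, 36.6 and 38.9 in the overexpressor and 24.0, 22.5 and 18.5 in the knockout. Overexpressor libraries were highest and knockout libraries lowest at each stage, with no overlap between lines. The gene shares 133 bases of exon with the antisense gene Dnmt3aos, and since the strand setting of the counting is not given in the sources used here, reads there cannot be assigned to either.

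Dnmt3a rose on differentiation by 0.73 (log2) in control (SE 0.09, adjusted p = 5.76e-07), 0.46 in the overexpressor (adjusted p = 0.00011) and 0.34 in the knockout (SE 0.09, adjusted p = 0.00224). The knockout rise was lost with library totals as the scaling (0.17, adjusted p = 0.108). In myoblasts it was higher by 0.43 in the overexpressor than in control (adjusted p = 0.000474) and lower by 0.23 in the knockout (difference -0.23, adjusted p = 0.0300). The knockout difference was small and was lost with the GC and length trend removed (-0.10, adjusted p = 0.255), without control myoblast replicate B (-0.18, adjusted p = 0.133) and without knockout myoblast replicate A (-0.18, adjusted p = 0.132) or B (-0.23, adjusted p = 0.0690). In myotubes it was 1.54-fold lower in the knockout than in control (log2 -0.63, SE 0.09, adjusted p = 3.79e-06), and the overexpressor value of 0.16 was not called (adjusted p = 0.113). Under other settings the latter was called: it was 0.27 with DESeq2 size factors (adjusted p = 0.00854), 0.31 with library totals (adjusted p = 0.00729), 0.25 with the compared groups alone (adjusted p = 0.0289), 0.29 with the GC and length trend removed (adjusted p = 0.00129), 0.27 in the Wald test of DESeq2 (adjusted p = 0.0032) and, on leaving out replicate C of the overexpressor myotubes, 0.24 (adjusted p = 0.0353). The overexpressor exceeded the knockout by 0.66 in myoblasts (adjusted p = 2.99e-06) and 0.79 in myotubes (adjusted p = 5.02e-07).

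Dnmt3b (ENSMUSG00000027478, chr2:153649450-153687730, plus strand) was low throughout. Its myoblast levels were 3.37, 3.08 and 3.54 CPM in control, 2.00, 2.22 and 3.12 in the overexpressor and 3.12, 3.42 and 3.33 in the knockout. Myotube levels were 2.35, 2.38 and 2.49 CPM in control, 1.40, 2.08 and 1.47 in the overexpressor and 1.81, 2.18 and 1.84 in the knockout. Every line had a lower mean in myotubes, though the stages of the overexpressor overlapped, and in myoblasts the overexpressor overlapped both other lines. It fell on differentiation by 0.47, 0.56 and 0.76 in control, overexpressor and knockout (adjusted p = 0.0246, 0.00975 and 0.000933). The control call was lost without myoblast replicate A (-0.46, adjusted p = 0.0559) or C (-0.42, adjusted p = 0.0748) and without myotube replicate A (-0.45, adjusted p = 0.0637) or B (-0.46, adjusted p = 0.0579), and library totals gave -0.71. That of the overexpressor was lost without myoblast replicate C (-0.35, adjusted p = 0.0963) and without myotube replicate A (-0.45, adjusted p = 0.0519) or C (-0.44, adjusted p = 0.0573). Between overexpressor and control it was lower by 0.45 in myoblasts (difference -0.45, adjusted p = 0.0464) and 0.54 in myotubes (difference -0.54, adjusted p = 0.0129). Neither call was stable: the first was lost without any 1 of the 3 control libraries (-0.40 to -0.50) or overexpressor replicate A (-0.32, adjusted p = 0.204) or B (-0.39, adjusted p = 0.140), and the second without overexpressor myotube replicate C (-0.36, adjusted p = 0.119) or A (-0.43, adjusted p = 0.0636).

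Dnmt3l, which codes for a cofactor of the de novo enzymes without catalytic activity of its own, lies at chr10:78041947-78063622 on the plus strand. It was not one of the 9 but was on the list of partners; since it passed the filter only through control myotubes, it is left out of that list's counts. It had 63, 40 and 53 counts in control myotubes (1.19, 0.916 and 0.956 CPM) and 0 in all other 15 libraries. Against a floor of 3 counts per library, control myotubes were at least 17.0-fold higher than control myoblasts, at least 24.8-fold higher than overexpressor myotubes and at least 18.7-fold higher than knockout myotubes. Dnmt3l shares 67 bases of exon with Aire on the opposite strand, and the counts are low enough that a small number of reads make up the whole value.

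Among the dioxygenases, Tet3 carried the most RNA and separated control myotubes from every other group. Tet3 (ENSMUSG00000034832, chr6:83362373-83459084, minus strand) stood at 74.3, 73.1 and 69.8 CPM in control myoblasts, 64.7, 72.4 and 69.0 in the overexpressor and 74.8, 77.0 and 84.7 in the knockout. As myotubes, the lines stood at 121, 122 and 126 CPM in control, 88.2, 95.8 and 93.3 in the overexpressor and 98.0, 93.1 and 80.9 in the knockout. The control and overexpressor myoblasts overlapped, as did the myotubes of both clones, and the 3 control myotube libraries lay above all others. Tet3 rose on differentiation by 0.76 in control (SE 0.07, adjusted p = 3.31e-08), by 0.43 in the overexpressor (adjusted p = 4.13e-05) and by 0.20 in the knockout (adjusted p = 0.0197). The knockout rise came with overlapping libraries and was lost with library totals (0.04, adjusted p = 0.717), with the GC and length trend removed (0.11, adjusted p = 0.134) and without knockout replicate A or B of either stage (0.14 to 0.18).

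In myotubes Tet3 was lower than in control by 0.41 in the overexpressor (difference -0.41, SE 0.07, adjusted p = 7.5e-05) and by 0.44 in the knockout (difference -0.44, SE 0.07, adjusted p = 3.09e-05). The overexpressor value was -0.26 with library totals (adjusted p = 0.00913), -0.27 with the GC and length trend removed (adjusted p = 0.0012) and -0.32 without replicate C (adjusted p = 0.00192). The response of Tet3 differed from that of control by -0.56 in the knockout (adjusted p = 0.000182). For the overexpressor the difference was -0.34 (adjusted p = 0.0132) and was lost with library totals (-0.15, adjusted p = 0.337) and on leaving out replicate C of the overexpressor myotubes (-0.23, adjusted p = 0.0948). Between the clones the response difference of 0.23 was not called (adjusted p = 0.0758), but that of 0.27 without overexpressor myoblast replicate B was (adjusted p = 0.0449).

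Tet2 (ENSMUSG00000040943, chr3:133463679-133545139, minus strand) had its widest spread between replicates in overexpressor myotubes. It stood at 11.6, 13.0 and 11.3 CPM in control myoblasts, 10.5, 15.3 and 16.3 in the overexpressor and 14.0, 13.1 and 14.2 in the knockout. Its myotube levels were 15.5, 15.6 and 20.5 CPM in control, 19.2, 17.0 and 30.9 in the overexpressor and 12.9, 9.21 and 7.26 in the knockout. All 3 knockout myotube libraries were below those of both other lines, and the highest overexpressor value came from replicate C. Tet2 was lower in knockout than in control myotubes by 0.81 (difference -0.81, SE 0.23, adjusted p = 0.00633) and higher in overexpressor than in knockout myotubes by 1.19 (SE 0.23, adjusted p = 0.000462), or 0.91 without overexpressor replicate C (adjusted p = 0.000852). It rose in the overexpressor on differentiation by 0.68 (adjusted p = 0.0185), a call lost without overexpressor myotube replicate C (0.42, adjusted p = 0.0724) or myoblast replicate A (0.50, adjusted p = 0.0873). In control (0.52, adjusted p = 0.0625) and the knockout (-0.49, adjusted p = 0.0782) no change was called. The control value passed with the compared groups alone (0.46, adjusted p = 0.00357), and that of the knockout without knockout myotube replicate A (-0.74, adjusted p = 0.0146). The gene shares 43 bases of exon with Gm42567 on the opposite strand.

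Tet1 (ENSMUSG00000047146, chr10:62804570-62908996, minus strand) was the lowest per kilobase. Its myoblast levels were 6.78, 5.23 and 4.81 CPM in control, 5.65, 7.63 and 5.71 in the overexpressor and 4.22, 4.90 and 4.56 in the knockout. In the myotubes it was at 3.62, 3.89 and 3.97 CPM in control, 4.02, 4.15 and 5.78 in the overexpressor and 5.28, 3.88 and 4.14 in the knockout. Ordered by mean, every group overlapped the next. It fell on differentiation by 0.55 in control (SE 0.17, adjusted p = 0.00983) and 0.44 in the overexpressor (adjusted p = 0.0295), both of which were lost when single libraries were left out, at -0.39 (adjusted p = 0.0744) without control myoblast replicate A and at -0.29 (adjusted p = 0.177) without overexpressor myoblast replicate B, -0.35 (adjusted p = 0.119) without myotube replicate A and -0.36 (adjusted p = 0.108) without myotube replicate B. In the knockout its value of -0.04 was not called (adjusted p = 0.854).

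In knockout myotubes the change of all genes had a trend with GC content, which bears on Tet1 and Tet2. When the tested genes were split into 5 equal classes by the GC content of their longest transcript, the median log2 change of knockout against control myotubes was -0.64 in the lowest class, then -0.22, 0.03, 0.19 and 0.20. In overexpressor against control myotubes the medians ran from 0.03 to -0.09. Tet1 lay in the lowest GC class and Tet2 and Zfp57 in the next, while Dnmt1, Uhrf1, Dnmt3a, Dnmt3b and Tet3 lay in class 4 and Trim28 in the highest. By length of the longest transcript, the knockout medians ran from 0.21 in the shortest class to -0.40 in the longest. The longest class held Dnmt1, Dnmt3a, Tet1, Tet2 and Tet3. The knockout value of Tet3 (-0.44) lay near the median of this length class, whereas the median of its GC class was 0.19. In the overexpressor the length medians ran from 0.03 to -0.10. The trends with GC content and length were removed from each library as an alternative chosen after seeing the data. The knockout value of Tet2 in myotubes was then -0.33 and no longer called (adjusted p = 0.0864), and that of Tet1 went from 0.21 (adjusted p = 0.287) to 0.97 (adjusted p = 3.85e-07). The direction of Tet1 reversed in overexpressor against knockout myotubes, from 0.07 (adjusted p = 0.749) to -0.55 (adjusted p = 0.00036), and in the differentiation of the knockout, from -0.04 to 0.56 (adjusted p = 0.000268). Tet2 stayed higher in overexpressor than in knockout myotubes (0.80, adjusted p = 0.000409). No direction is therefore given for Tet1 in the knockout line.

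**Figure D4:**
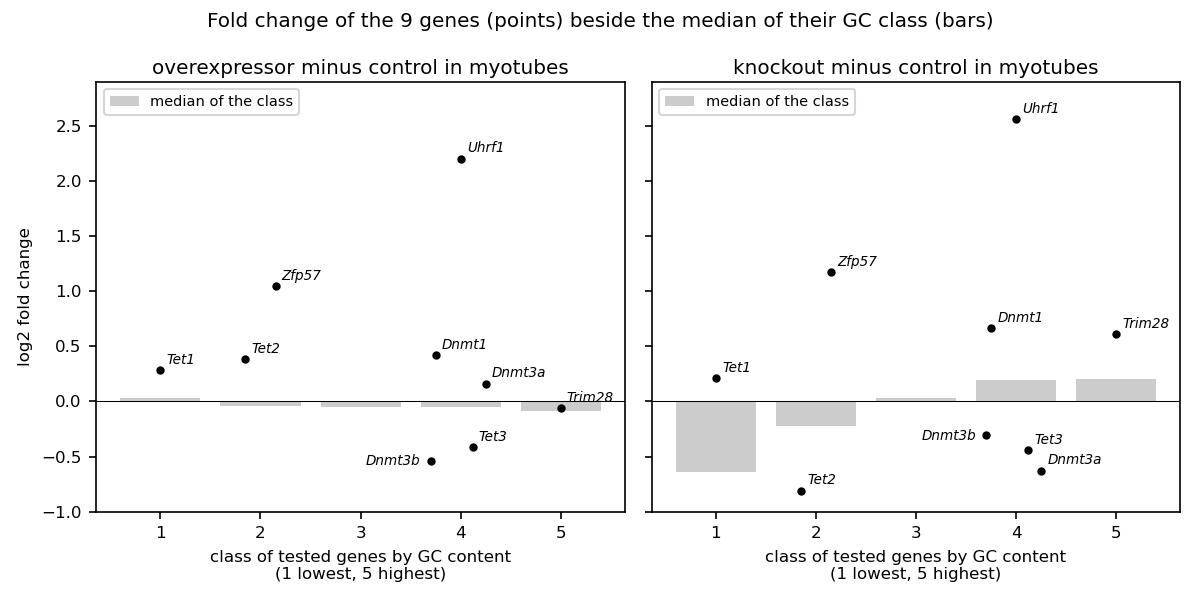
Log2 fold change of the 9 genes (points, vertical axis) in overexpressor and knockout myotubes against control, placed by the class of tested genes by GC content they belong to (horizontal axis, 1 lowest, 5 highest; points are offset sideways for legibility), with bars for the median of all genes in that class. In the knockout the medians ran from -0.64 to 0.20 and in the overexpressor from 0.03 to -0.09, and Uhrf1 and Zfp57 lay far above their class's median in both.

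The imprint keepers differed from each other. Zfp57 (ENSMUSG00000036036, chr17:37001163-37010635, plus strand) stood at 18.6, 15.7 and 16.7 CPM in control myoblasts, 13.6, 14.7 and 15.6 in the overexpressor and 23.3, 21.4 and 21.0 in the knockout. On day 3 the levels were 9.78, 10.7 and 9.78 CPM in control, 19.3, 19.9 and 23.3 in the overexpressor and 22.9, 21.1 and 24.2 in the knockout. Control myotubes held less Zfp57 than any other library, and the myotubes of both clones overlapped each other and the knockout myoblasts.

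Zfp57 fell on differentiation in control by 0.75 (SE 0.09, adjusted p = 1.56e-06), rose in the overexpressor by 0.51 (SE 0.09, adjusted p = 0.000113), and was at 0.06 in the knockout (adjusted p = 0.608), where library totals turned the uncalled value to -0.11. Its called changes in control and the overexpressor thus had opposite signs. Its response exceeded that of control by 1.26 in the overexpressor (SE 0.13, adjusted p = 5.18e-07) and by 0.81 in the knockout (SE 0.13, adjusted p = 6.93e-05). In myotubes Zfp57 was 2.06-fold higher in the overexpressor than in control (log2 1.04, SE 0.09, adjusted p = 2.59e-08) and 2.26-fold higher in the knockout (log2 1.17, SE 0.10, adjusted p = 4.76e-09), with the GC and length trend removed 1.29 in the latter. Without replicate C of the overexpressor myotubes the former was 1.06 (adjusted p = 9.5e-09). The value of -0.13 between the clones was not called (adjusted p = 0.236), but -0.24 was with the GC and length trend removed (adjusted p = 0.0297). In myoblasts it was higher in the knockout than in control by 0.37 (SE 0.09, adjusted p = 0.00285) and lower in the overexpressor than in the knockout by 0.58 (difference -0.58, adjusted p = 3.83e-05). The overexpressor value against control was -0.22 (adjusted p = 0.0779), and -0.26 with library totals (adjusted p = 0.0389).

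Trim28 (ENSMUSG00000005566, chr7:12999114-13031035, plus strand) stood at 446, 479 and 508 CPM in control myoblasts, 435, 372 and 430.2 in the overexpressor and 427, 419 and 425 in the knockout. Among myotubes the values were 242, 235 and 214 CPM in control, 237, 232 and 193 in the overexpressor and 319.9, 349 and 388 in the knockout. Knockout myotubes lay above the myotubes of both other lines, which overlapped each other. Trim28 fell on differentiation by 1.05 in control (adjusted p = 6.97e-09) and by 0.90 in the overexpressor (adjusted p = 4.93e-08). In the knockout it fell by 0.26 (adjusted p = 0.0133), a call lost under DESeq2 size factors (-0.14, adjusted p = 0.237), without knockout myotube replicate A (-0.20, adjusted p = 0.0721) and in the Wald test of DESeq2 (-0.14, adjusted p = 0.274), while the GC and length trend removed gave -0.63. Knockout myotubes held 1.53-fold more than control (log2 0.61, SE 0.09, adjusted p = 7.16e-06), and the value was 0.32 with the trend removed (adjusted p = 2.65e-07). The overexpressor value of -0.06 in myotubes was not called (adjusted p = 0.563) and changed sign with the scaling. The response of the knockout exceeded that of control by 0.79 (SE 0.12, adjusted p = 4.53e-05), or 0.27 with the trend removed. That of the overexpressor exceeded control by 0.15, not called (adjusted p = 0.384), and by 0.35 without overexpressor myotube replicate C (adjusted p = 0.0241).

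Within the methyltransferase family, RPKM shares shifted from Dnmt1 towards Dnmt3a in myotubes, most in control. Dnmt1 made up 95.1% of the summed RPKM of the 3 genes in control myoblasts, 92.0% in the overexpressor and 92.9% in the knockout, and 71.9%, 76.7% and 85.7% in the myotubes of the same lines (group means, n = 3). Dnmt3a went from 3.20%, 6.19% and 4.34% to 22.7%, 20.4% and 11.0%. Dnmt3b stayed between 1.72% and 5.33%. These shares depend on the length used: with the longest coding sequence in place of the union of exons, the myotube share of Dnmt1 was 42.2% for control, 47.2% for the overexpressor and 63.8% for the knockout. That of Dnmt3a was then 53.7%, 50.4% and 33.0%, so the gene with the largest share in control and overexpressor myotubes changed with the length. In the dioxygenase family Tet3 held between 77.0% and 86.4% in every group, Tet2 between 9.09% and 18.3% and Tet1 between 2.87% and 7.63%. These shares are descriptions with no test.

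**Figure D5:**
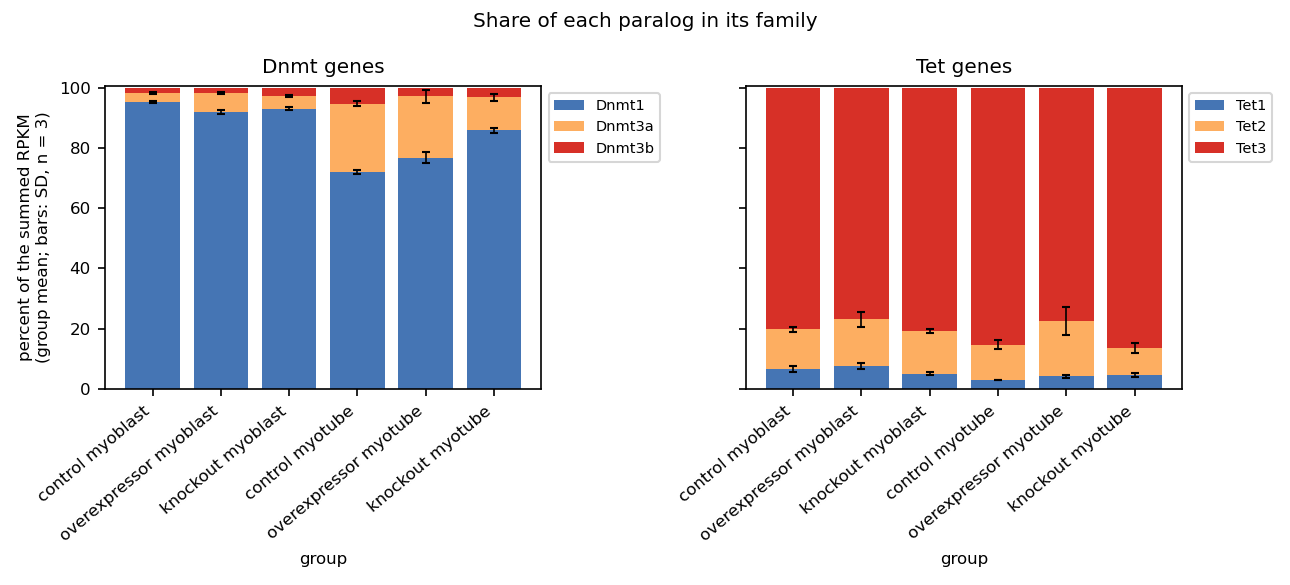
Percent of the summed RPKM of each family (vertical axis, group mean, bars: SD, n = 3) taken by each gene in the 6 groups, for the Dnmt genes and the Tet genes. Dnmt1 took from 92.0% to 95.1% in myoblasts and from 71.9% to 85.7% in myotubes, and Tet3 took at least 77.0% in every group. Lengths are the union of exons, and with the longest coding sequence Dnmt3a exceeded Dnmt1 in control and overexpressor myotubes.

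The genes whose log2 CPM followed each member most closely over the 18 libraries were ranked by Pearson's r among genes with a mean of at least 5 CPM, as a description, since the libraries fall into 6 groups. Uhrf1 was followed by Cdc45 (r = 0.994), Chaf1b (0.993) and Mcm5 (0.993), which act at the replication fork, and Dnmt1 by Aaas (0.990), Rpa2 (0.989) and Cdca2 (0.988). The nearest to Trim28 were Eftud2 (0.979), Pold2 (0.978) and Tmem164 (0.977), and to Dnmt3a Zhx3 (0.972), Habp4 (0.970) and Hbegf (0.950). Zfp57 was nearest to Chst15 (0.969), Mrpl18 (0.955) and Dusp2 (0.931). For the dioxygenases the nearest were Wdfy1 (0.956), Atg2b (0.954) and Gpt2 (0.953) to Tet3, D5Ertd579e (0.953), Macf1 (0.947) and Taok1 (0.944) to Tet2, and Ap1s2 (0.873), Stk38 (0.828) and Magi3 (0.816) to Tet1. Dnmt3b was nearest to Farp1 (0.911), Tlcd1 (0.911) and Pim3 (0.909). Most of these names change with the measure. By Spearman's rho Cdc45 ranked 105 for Uhrf1 and Pold2 294.5 (a tie) for Trim28, and the nearest were Chaf1a, Mcm2 and Tonsl to Uhrf1 and Lmnb1, Chaf1a and Mcm2 to Dnmt1, while Zhx3 ranked first for Dnmt3a by both.

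The counts of the lists that follow are read against all genes, of which 26.2% were higher and 30.9% lower than control in overexpressor myotubes (median -0.04), and 31.0% and 37.0% in knockout myotubes (median -0.07). Of the 8 partners of maintenance methylation other than Dnmt3l, 3 were higher and 3 lower in overexpressor myotubes (median -0.10), and 3 were higher and 3 lower in knockout myotubes (median -0.10). Pclaf, a PCNA-associated factor, was higher by 1.64 in the overexpressor (adjusted p = 3.48e-07) and 1.24 in the knockout (adjusted p = 9.26e-06). Hells, a chromatin remodeller needed for methylation, was higher by 1.20 in the overexpressor (adjusted p = 0.0112) and at -0.08 in the knockout (adjusted p = 0.860). Uhrf2, the paralog of Uhrf1, was lower by 0.82 and 0.90 (differences -0.82 and -0.90, adjusted p = 8.80e-06 and 2.63e-06).

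Among 13 tested genes of active demethylation and base excision repair, 2 were higher and 6 lower than control in overexpressor myotubes (median -0.11, 57.1% of all genes called), and 6 were higher and 4 lower in knockout myotubes (median 0.17, 68.0% of all genes called). Tdg, the glycosylase that removes oxidised methylcytosine, was not called in either (-0.11 and -0.05). The lowest values were those of the cytidine deaminase gene Apobec1, at -3.01 in overexpressor and -2.97 in knockout myotubes (adjusted p = 1.03e-09 and 1.20e-09). Its means were 17.3 CPM in control myotubes and 2.15 and 2.19 CPM in those of the clones. Gadd45a, a stress-response gene linked to demethylation, was higher by 1.92 in knockout than in control myoblasts (adjusted p = 6.43e-11), with means of 124 and 32.6 CPM, and reached 344 CPM in control myotubes.

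Of 7 listed genes of methyl-CpG-binding protein families, 6 were lower and 1 higher than control in knockout myotubes (median -1.06, where 37.0% of all genes were lower). In the overexpressor 2 were lower and 1 higher (median near 0, where 30.9% were lower). The higher one in the knockout was Mbd3 (0.78, adjusted p = 1.63e-07), a family member whose own binding to methylated CpG is not assumed here. The lowest there were Zbtb38 (-1.54, adjusted p = 1.94e-06) and Zbtb33 (-1.53, adjusted p = 0.00136), in GC classes 2 and 1, where the medians of all genes were -0.22 and -0.64. Of 15 genes of heterochromatin and KRAB zinc finger co-repression, 2 were higher and 6 lower in knockout myotubes (median -0.27, 68.0% of all genes called). In the overexpressor 5 were higher and 3 lower (median 0.13, 57.1% of all genes called). The histone methyltransferase gene Setdb1 was higher in both (0.45, adjusted p = 4.91e-07, and 0.13, adjusted p = 0.0374), as was Suv39h1 (1.06 and 0.68). Zfp445, which codes for another zinc finger protein that keeps imprints, was lower in the knockout (-1.39, adjusted p = 0.00190), not called in the overexpressor (-0.18, adjusted p = 0.668), and lay in the lowest GC class.

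Of 13 listed imprint factors of the oocyte or embryo, 7 could be tested. In knockout myotubes 5 of them were lower than control and none higher (median -0.69, where 37.0% of all genes were lower), among them Smchd1 (-1.45, adjusted p = 0.00012) and Arid4b (-2.04, adjusted p = 0.000253), both in the lowest GC class. In overexpressor myotubes 1 was higher and 1 lower (57.1% of all genes called). Dppa3, the oocyte gene that shields methylation from oxidation, was not tested, since its counts were near 0. Of 14 tested genes of methyl donor supply, 4 were higher and 6 lower in knockout myotubes (68.0% of all genes called) and 3 were higher and 5 lower in the overexpressor (57.1%). Shmt2, the mitochondrial serine hydroxymethyltransferase gene, was lower in both (-1.29, adjusted p = 1.00e-09, and -1.91, adjusted p = 7.13e-12), and Mat2a, which codes for the enzyme that makes S-adenosylmethionine, was higher by 0.81 in knockout myoblasts (adjusted p = 2.17e-10) and 0.26 in overexpressor myotubes (adjusted p = 0.000213).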

How the data were processed

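Polyadenylated RNA of 18 libraries was measured. The authors deposited a table of raw read counts by Ensembl gene ID, 1 column for each library, and these counts were used unchanged. The submitters' processing notes name STAR 2.7.9a, featureCounts, Subread 2.0.3, FastQC 0.11.7, DESeq2 1.32.0 and the build mm10. The annotation release and strand setting are not given in the sources used here. IDs were matched to GENCODE on GRCm38 (55104 of 55450). The authors' variance-stabilised values were not used here.

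Genes were filtered by filterByExpr, which kept at least 99.97% of each library's counts, scaled by TMM (factors 0.895 to 1.08) and fitted with edgeR 4.0.16 (glmQLFit, robust; limma 3.58.1, R 4.3.3) with 1 coefficient for each of the 6 groups, 12 residual degrees of freedom and 12 contrasts. P-values were adjusted by Benjamini-Hochberg over the 17912 genes of each contrast, with a threshold of 0.05. A change is called when it passes. RPKM used the union of exons, and the floor is 3 counts per library, or 0.0375 to 0.0693 CPM, a limit on counting error alone, since reads need not be independent molecules. Counts of knockout against control myoblasts were simulated over 17912 genes, with 100 genes changed by 1 log2 unit and 100 by 2 units. The changed genes were drawn from those with a mean above 1 CPM. Of these changes, 96% and 99% were called, with 10 of 17153 unchanged genes called. In the data 53.0% of genes were called in this contrast, so the simulation held far fewer changes. It does not give the sensitivity in these data or for genes of lower level. Tables and figures were made with Python 3.11.15, pandas 2.3.3 and matplotlib 3.10.9.

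The members and lists were chosen with earlier results of these data known. Named throughout were the 9 genes, Meg3 and Rian as label checks (Rian: 8206 to 13241 counts per overexpressor library, at most 1 per control and at most 4 per knockout library), Pcna, Mcm2, Mcm5, Tyms, Setdb1, Hells, Zfp445, Tdg, Dnmt3l, Dppa3 and Mat2a, and the 3 genes nearest each member. List genes came from the 2 highest and 2 lowest called in a line contrast. Replicate letters are shared by the groups, and the labels do not say what they mark. Same-letter libraries did not in general deviate together: the correlation exceeded 0.1 in 4 of 45 pairs, with a highest value of 0.26. The main fit therefore had no block for the letter. Alternatives were another scaling, no filter, a replicate block, fits of the compared groups alone, each replicate left out, the Wald test of DESeq2 1.42.0 and, chosen after seeing the data, removal of each library's trend with GC content and length.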

Additional observations from a re-analysis of the deposited data

Results flagged for a closer look

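The following results stood out because the change on differentiation differed between 2 lines when that difference was tested (edgeR's quasi-likelihood test, Benjamini-Hochberg adjustment over 17912 genes). Values are differences of log2 fold changes.

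For the overexpressor minus the control line the differences were 0.99 for Dnmt1 (adjusted p = 5.53e-07), 2.42 for Uhrf1 (1.01e-08), -0.34 for Tet3 (0.0132) and 1.26 for Zfp57 (5.18e-07). For the knockout minus the control line they were 1.38 for Dnmt1 (7.16e-09), 3.25 for Uhrf1 (2.66e-10), 0.81 for Zfp57 (6.93e-05) and 0.79 for Trim28 (4.53e-05). In the same comparison they were -0.39 for Dnmt3a (0.0117), -1.01 for Tet2 (0.0190) and -0.56 for Tet3 (0.000182). For the overexpressor minus the knockout line they were -0.39 for Dnmt1 (0.00613), -0.83 for Uhrf1 (0.000991), 1.16 for Tet2 (0.00931), 0.45 for Zfp57 (0.00953) and -0.64 for Trim28 (0.000442). The comparisons share libraries, so the values of 1 gene are not independent of each other. The Dnmt3a difference was lost with DESeq2 size factors (-0.24, adjusted p = 0.0969), the Tet2 difference from control without control or knockout myotube replicate C (-0.87, adjusted p = 0.0541, and -0.84, adjusted p = 0.0514), and the Zfp57 difference between the clones with the GC and length trend removed (0.30, adjusted p = 0.0655). The same removal took the Trim28 difference between the clones to -0.15 (adjusted p = 0.0342).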

How the results depend on the processing

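Of 108 results (9 genes in 12 contrasts), 69 were called, of which 47 stayed called in all settings, 22 were lost in some and 0 changed sign. The other 39 were not called, and 24 of them passed in some setting with an unchanged sign. Reversed values were not counted there even where they passed, as those of Tet1 did with the GC and length trend removed. The replicate block left all 108 on the same side of the threshold and in the same direction, with 108 of 108 unchanged, and the number of members called within 1.5 times. For overexpressor against control myoblasts 3 members were called, against 5 with library totals, 5 with the compared groups alone, 5 with the GC and length trend removed and 2 to 3 with 1 library left out. For knockout against control myoblasts 4 became 8 with the compared groups alone. For overexpressor against knockout myoblasts 6 became 3 to 5 with 1 library left out, the lowest without knockout myoblast replicate C. For overexpressor against control myotubes 5 became 8 with the GC and length trend removed and 8 with the Wald test of DESeq2. For overexpressor against knockout myotubes 5 became 3 with library totals, 3 with the compared groups alone, and 3 to 6 with 1 library left out, the lowest without overexpressor replicate C or knockout replicate B. Some values reversed, none of them called in the fit reported. With DESeq2 size factors in edgeR these were Trim28 in overexpressor against control myotubes (0.0509), Tet1 in the differentiation of the knockout (0.0841) and Dnmt3b in the response of overexpressor minus control (0.0210), and in the Wald test the same 3 (0.0509, 0.0841 and 0.0226). With library totals they were Trim28 (0.0849) and Dnmt3b (0.0941) in the same comparisons and Zfp57 in the differentiation of the knockout (-0.11). With the compared groups alone they were Trim28 (0.0246) and Tet1 (0.0246) in the same comparisons. With the GC and length trend removed they were Dnmt3b (0.10) and Trim28 (0.0559) in knockout against control myoblasts, Tet1 in overexpressor against knockout myotubes (-0.55) and Tet1 in the differentiation of the knockout (0.56). With 1 library left out, reversed values had these ranges: Dnmt3b in knockout against control myoblasts -0.0706 to 0.0292, in the response of overexpressor minus control -0.293 to 0.118 and minus knockout -0.00163 to 0.410. Those of Tet1 were -0.0486 to 0.267 in the response of overexpressor minus control, -0.184 to 0.0497 in the differentiation of the knockout and -0.0888 to 0.214 in overexpressor against knockout myotubes. Those of Tet2 were -0.0373 to 0.322 in the response of overexpressor minus control and -0.0950 to 0.198 in overexpressor against knockout myoblasts. Those of Trim28 were -0.0779 to 0.0321 in overexpressor against knockout myoblasts and -0.115 to 0.127 in overexpressor against control myotubes, and that of Tet3 in overexpressor against knockout myotubes -0.0485 to 0.0866. The cause was not tested in any of these. Scaling moved the median of all genes by over 0.1 in some contrasts: by -0.24 (control differentiation), -0.17 (knockout differentiation), 0.15 (overexpressor against control myotubes), 0.19 (response of overexpressor minus control) and 0.11 (response of overexpressor minus knockout) with library totals, and by 0.13 (knockout against control myotubes), 0.11 (knockout differentiation), 0.11 (overexpressor against control myotubes), 0.15 (response of knockout minus control) and 0.11 (response of overexpressor minus control) with DESeq2 size factors. The share of higher calls moved accordingly, from 54.0% to 37.9% for control differentiation, 45.5% to 34.0% for knockout differentiation, 45.8% to 57.8% for overexpressor against control myotubes, 42.7% to 61.0% for the response of overexpressor minus control and 52.0% to 61.9% for that of overexpressor minus knockout with library totals, and from 42.7% to 53.9% and 40.4% to 52.0% for the responses of overexpressor and knockout minus control with DESeq2 size factors. Depth limits Dnmt3l most and, among the 9, Dnmt3b and Tet1, which had the lowest levels per library.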
